A study of Mus musculus with 17 samples.

Results

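The genes described here encode the natriuretic peptide receptors Npr1, Npr2 and Npr3, the peptides guanylin (Guca2a) and uroguanylin (Guca2b), the protease Corin and the phosphodiesterase Pde5a. They are 7 of the 55487 genes counted in the kidney, and were found by matching each symbol to 1 mouse Ensembl identifier. They were chosen by name with their db/db against db/m log2 fold changes and calls in these same libraries in view. The differences between the groups are therefore given as a description. No p-value for them is printed for these 7 genes, and whether a gene passed a threshold is stated only to describe it. RNA came from kidneys of 17 male mice aged 16 weeks, with 1 library per animal. The control group, db/m (n = 8), was of the strain BKS.Cg-Dock7m +/+ Leprdb/J and is marked HE/HE in the series design. The db/db group (n = 9) was of the same strain and is marked WT/HO. The db allele of the leptin receptor gene Lepr removes signalling by its long form in every tissue, so db/db mice are obese and diabetic and kidney effects cannot be told apart from effects of the whole-body state. The controls also carry the Dock7m allele, by which the groups differ too.

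Natriuretic peptides are hormones that lower blood pressure and raise sodium excretion. They act through cyclic GMP (cGMP), which Npr1 makes on binding the atrial and B-type peptides and Npr2 on binding the C-type peptide. Npr3 has no cyclase and clears the peptides from the circulation, and in the kidney it is best known from podocytes of the glomerulus. Guanylin and uroguanylin act on a related cyclase, Gucy2c, in the gut, and uroguanylin is known to promote sodium excretion by the kidney. Corin cuts the atrial peptide from its precursor, and Pde5a breaks down cGMP.

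The guanylins are short related peptides cut from the end of their precursors, and they are shown because reads of one could in principle be counted for the other. The last 45 coding bases before the stop codon, taken from GENCODE M21 transcripts and written 5′ to 3′, were identical at 29 places, and the 16 that differ are in capitals.
Guca2a: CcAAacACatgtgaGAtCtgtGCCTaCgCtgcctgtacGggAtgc
Guca2b: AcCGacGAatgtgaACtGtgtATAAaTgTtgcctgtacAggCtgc
No stretch of 30 bases was shared between transcripts of any of the 21 pairs of these 7 genes, so no read could match 2 of them over such a length. Coding length, stop codon included, was 3174 bases for Npr1, 3144 for Npr2 and 1611 for Npr3, whose protein lacks the cyclase part. In the same annotation 5 of the 7 genes share an exon with a gene on the opposite strand. Those opposite genes together held 7 counts at Npr3, 1 at Pde5a and 0 at Npr1, Npr2 and Corin, summed over all libraries.

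The sequences before the start of the genes are shown for the guanylin pair, which lie close together on chromosome 4, and for Npr3, which differed most between the groups. Each is the 250 bases before the start in the RefSeq table (build GRCm38.p6, in which all 7 genes were found), 5′ to 3′ on the gene's strand. Capitals mark matches, on either strand, to 5 short motifs, each spelled out where its matches are given after the sequences.
Guca2b, chr4:119658946-119659195, minus strand: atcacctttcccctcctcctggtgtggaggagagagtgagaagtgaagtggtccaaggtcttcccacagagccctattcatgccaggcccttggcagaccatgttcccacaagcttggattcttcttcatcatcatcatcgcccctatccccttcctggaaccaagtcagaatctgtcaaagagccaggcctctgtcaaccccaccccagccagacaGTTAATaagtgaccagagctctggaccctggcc
Guca2a, chr4:119637482-119637731, plus strand: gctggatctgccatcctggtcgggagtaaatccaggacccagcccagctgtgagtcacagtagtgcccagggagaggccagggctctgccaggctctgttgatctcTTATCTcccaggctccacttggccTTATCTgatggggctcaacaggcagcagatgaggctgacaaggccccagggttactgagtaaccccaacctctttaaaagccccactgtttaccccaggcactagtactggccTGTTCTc
Npr3, chr15:11907372-11907621, minus strand: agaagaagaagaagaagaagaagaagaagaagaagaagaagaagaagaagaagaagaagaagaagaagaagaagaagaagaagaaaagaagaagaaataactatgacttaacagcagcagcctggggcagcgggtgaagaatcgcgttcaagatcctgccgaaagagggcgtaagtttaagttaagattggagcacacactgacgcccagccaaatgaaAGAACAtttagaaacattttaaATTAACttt
Guca2b and Npr3 held 1 match each to GTTAAT, part of the known binding site of the kidney transcription factor HNF1, found in 6.43% of the 32851 windows of this length in the table. Guca2a held 2 matches to TTATCT, which factors of the GATA family are known to bind (9.99% of windows have at least 1). Guca2a and Npr3 also held 1 match each to AGAACA, part of the known binding site of steroid hormone receptors (16.1% of windows). The Npr1 window held 2 matches to GGGCGG, which factors of the Sp family are known to bind, and the Pde5a window 1 (32.7% of windows), while the windows of Npr2 and Corin held none of these letters. The core promoter motif TATAA, present in 22.8% of windows, was in none of the 7. No matches overlapped. These are matches of letters and not binding sites.

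Levels are given as CPM, the counts of a gene relative to the size of its library after scaling by the TMM method. Reads come from the 3′ end, so long and short transcripts are counted alike. Libraries held 3256427 to 7627747 gene counts, and a count of 0 allows up to 3 counts, which is 0.380 to 0.929 CPM by library size. Such limits cover counting error only. Total counts did not differ beyond their spread (exact permutation p = 0.562, two-sided), nor did the share of mitochondrially encoded genes (28.8% ± 1.24 in db/m and 27.4% ± 2.60 in db/db, SD; exact permutation p = 0.168). Replicate 8 of db/db lay farthest out on the first principal component, at 79.2 against -44.3 to 43.1 for the others, and db/db replicates 4 and 7 had the fewest detected genes (16455 and 16102). Kidney identity held: summed markers of nephron segments and podocytes such as Umod, Slc34a1 and Aqp2 ran from 6060 to 8529 CPM. Reads outside genes were fewer in db/db (18.3% ± 2.29 against 20.2% ± 0.451; exact permutation p = 0.0360). Reads that could not be assigned to 1 gene were a larger share in db/db (0.567% ± 0.0308 against 0.503% ± 0.0222; exact permutation p = 0.000494). Animals were assigned by sample title, since titles match the library names and the group sizes of the design. In all 17 samples the separate genotype entry names the other genotype; were that entry correct, each direction below would be reversed. Library numbers run through db/m first, so a batch that follows them and the genotype cannot be told apart.

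Of the 7 genes, 5 had enough counts to be tested: the 3 receptors, Guca2b and Pde5a. Among these, 1 was higher and 2 were lower in db/db past an adjusted p of 0.05 in edgeR's quasi-likelihood fit across all genes. Over all 12131 genes tested, 3.91% were called higher and 3.49% lower, or 7.39% in either direction. As the list was made with this contrast known, nothing is read from these shares. The groups overlapped for each of the 5, whereas 1.78% of all tested genes had no overlap.

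**Figure D1:**
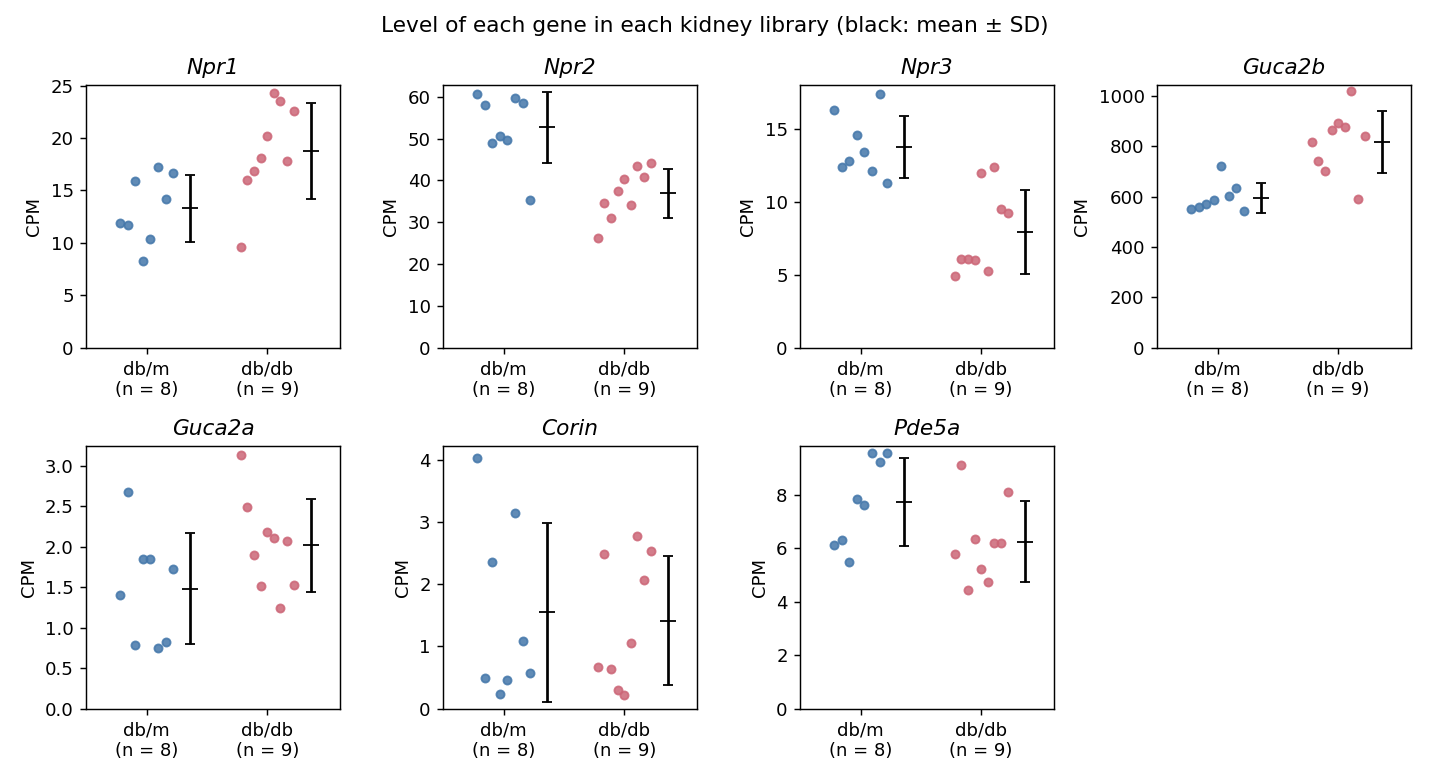
Level of each gene in CPM (vertical axes, from 0) in the 8 db/m libraries (blue) and the 9 db/db libraries (red), with the mean and SD of each group in black. Npr2 and Npr3 sit lower in db/db apart from db/m replicate 8 and a few db/db libraries, Guca2b sits higher in 7 of 9 db/db libraries than in any db/m library, and Guca2a and Corin are near the counting limit.

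Npr3, the clearance receptor, was the gene that differed most. In db/m its level was 11.3 CPM at the lowest, 13.1 at the median and 17.4 at the highest (20 to 93 counts per library over both groups). In db/db the lowest was 4.91, the median 6.12 and the highest 12.4 CPM. Of the 9 db/db libraries, 7 lay below every db/m library, and only replicates 5 and 7 reached into the db/m range. Means were 13.8 ± 2.14 CPM (SD, n = 8) and 7.95 ± 2.89 (n = 9), a log2 fold change of -0.79 (SE 0.19, 95% interval -1.19 to -0.39). The spread within db/db was wider for its mean than in db/m, with a coefficient of variation of 36.4% against 15.5%. The difference kept its sign and its side of the threshold in all 17 fits that left out 1 library, at -0.89 to -0.71.

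Because Npr3 is best known from podocytes, podocyte markers are given beside it. Of 10 such markers all were tested and 0 were called lower by edgeR. Of the 10, 7 had a positive log2 fold change, and the lowest was -0.30 (Magi2). Nphs1 (nephrin, of the slit diaphragm between podocytes) rose (0.84, SE 0.25; adjusted p = 0.0437 by edgeR). The summed level of the markers ran from 281 to 368 CPM in db/m and from 300 to 419 in db/db. The part of podocytes in the level of Npr3 was not tested. Of 12 endothelial markers 0 were called by edgeR and 0 by DESeq2 (2 had an unadjusted p under 0.05), with 632 to 824 CPM summed in db/m and 620 to 891 in db/db. In a whole kidney, fewer cells of a type and less RNA per cell cannot be told apart.

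Npr2, the receptor of the C-type peptide, was also lower in db/db. In db/m it was 35.4 CPM at the lowest, 54.3 at the median and 60.5 at the highest. In db/db it was 26.4, 37.4 and 44.2 CPM. The overlap came from db/m replicate 8 alone: the other 7 db/m libraries all lay above the highest db/db library. Means were 52.6 ± 8.43 and 36.9 ± 5.93 CPM, a log2 fold change of -0.51 (SE 0.12, 95% interval -0.77 to -0.26). Without any 1 library it stayed between -0.58 and -0.45 and past the threshold.

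That db/m library had the highest summed markers of its group for adipose tissue (306 CPM, where the db/m median was 21.1) and urothelium (100.0 against 11.4). It was also highest for thin limb and inner medulla (1101 against 232), mural and mesangial cells (426 against 201) and fibroblasts (308 against 151). The same held for principal cells of the collecting duct (1014 against 552). In db/db the highest adipose and urothelium sums, 312 and 75.5 CPM, were in replicate 9. That library was also highest for thin limb and inner medulla (473), mural and mesangial cells (379), fibroblasts (247) and principal cells (1671). The part of these cells in the level of Npr2 was not tested. In fits added after the data were seen, Npr2, Npr3 and Guca2b kept their calls without both libraries (-0.62, -0.86 and 0.43) and without db/db replicates 4, 7 and 8 (-0.58, -0.90 and 0.45).

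Npr1, which makes cGMP on binding the atrial and B-type peptides, lay the other way. Its level in db/m was 8.33 CPM at the lowest, 13.0 at the median and 17.2 at the highest, and in db/db 9.61, 18.1 and 24.3. In db/db, 6 of 9 libraries lay above every db/m library, while replicate 1 was lower than 7 of the 8. Means were 13.3 ± 3.21 and 18.8 ± 4.55 CPM, with a log2 fold change of 0.49 (SE 0.18, 95% interval 0.12 to 0.86) that did not pass the threshold over all genes. It did pass without db/db replicate 1, at 0.59.

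Since the receptors lay in opposite directions, their counts were set against each other within each library, which needs no scaling. This ratio was chosen after the values were seen and is a description. There were 0.678 to 1.75 Npr3 counts per Npr1 count in the 8 db/m libraries (median 1.15) and 0.217 to 0.591 in the 9 db/db libraries (median 0.410), with no overlap. Npr2 counts per Npr1 count ran from 2.13 to 6.08 in db/m (median 4.45) and from 1.40 to 2.74 in db/db (median 1.99), where 3 db/db libraries reached the lowest db/m library, replicate 8 again. Such a ratio shows unequal change and not which receptor changed.

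Within the groups, the 5 tested genes were compared pair by pair, which does not use the difference between groups. By Pearson's r, of the 20 relations (10 pairs in each group) 0 passed Benjamini-Hochberg adjustment, and 2 had an unadjusted p under 0.05. The closest was between Npr2 and Npr3 in db/db (r = 0.832, exact permutation p = 0.00578, adjusted p = 0.116; rho = 0.767, exact permutation p = 0.0214, adjusted p = 0.369; n = 9). Without the 2 libraries farthest from the median of Npr2, r was 0.856 (exact permutation p = 0.0244). In db/m the same pair gave r = 0.560 (exact permutation p = 0.147, adjusted p = 0.734; rho = 0.452, exact permutation p = 0.267, adjusted p = 0.794; n = 8), but it rested on the 2 outer libraries and was 0.0777 with them left out (exact permutation p = 0.918). By r, Npr1 and Npr2 in db/db were next (r = 0.785, exact permutation p = 0.0125, adjusted p = 0.125). Their rho was 0.55 (exact permutation p = 0.133, adjusted p = 0.787), and r without 2 libraries was 0.835 (exact permutation p = 0.0216). By rho, Npr1 and Guca2b in db/db came second (rho = 0.717, exact permutation p = 0.0369, adjusted p = 0.369). For that pair r was 0.342 (exact permutation p = 0.354, adjusted p = 0.821).

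**Figure D2:**
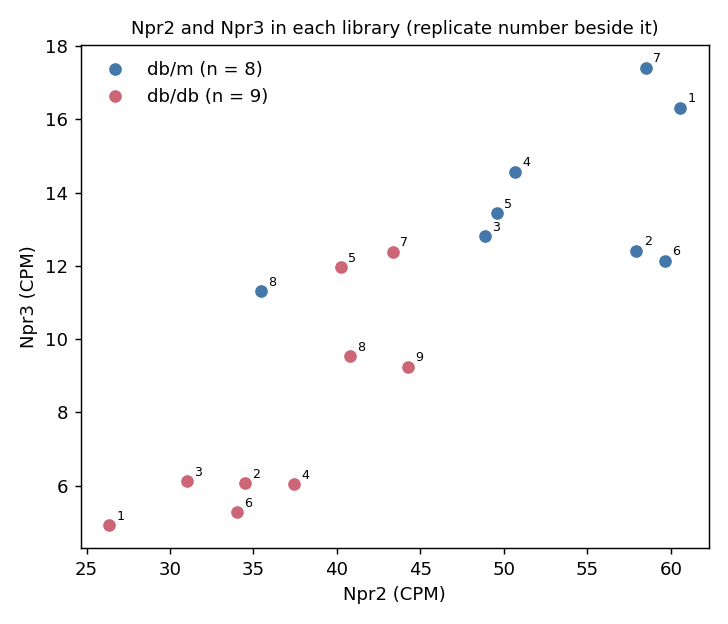
Level of Npr2 (horizontal, CPM) and Npr3 (vertical, CPM) in each library, db/m in blue and db/db in red, with replicate numbers. The 9 db/db libraries run from 26.4 and 4.91 CPM in replicate 1 upward together, and db/m replicate 8 lies among the db/db libraries in Npr2.

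Guca2b, uroguanylin, was by far the most counted of these genes, with 2178 to 6627 counts per library, and so its values carry the least counting error. Its level in db/m was 542 CPM at the lowest, 577 at the median and 723 at the highest. In db/db it was 591, 840 and 1018 CPM. Of the 9 db/db libraries 7 lay above every db/m library; the lowest was replicate 8, the library that stood apart on the first principal component. Means were 595 ± 59.7 and 815 ± 124 CPM, a log2 fold change of 0.45 (SE 0.10, 95% interval 0.24 to 0.67), and 0.41 to 0.51 when any 1 library was left out, always past the threshold.

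Guca2a, guanylin, had 3 to 14 counts per library and was too low to test. It lay at 0.749, 1.56 and 2.68 CPM (lowest, median, highest) in db/m and 1.24, 2.07 and 3.13 in db/db, so the groups overlapped widely. A fit of all genes with any count gave 0.45 (SE 0.35, 95% interval -0.26 to 1.16), which covers both no difference and the size seen for Guca2b. The guanylins and Npr2 lie on chromosome 4, as does Lepr, but none of the 3 lies within 10 Mb of it in GENCODE M21. Of the 10 tested genes nearest to Guca2b in gene order, 5 on each side, 0 were called, beside 7.39% of all tested genes. With so few genes, nothing is read from that count. Their log2 fold changes ran from -0.47 (Ccdc30) to 0.52 (Cited4), with Nfyc at 0.43 (SE 0.16). The part of the region in the level of Guca2b was not tested.

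Markers of several tubule segments differed between the groups and are given beside Guca2b. In the last proximal segment, S3, 4 of 5 markers fell and 1 rose, and the summed level was 1042 to 1334 CPM in db/m and 507 to 887 in db/db. Among 7 markers of principal cells, which take up sodium and water in the collecting duct, the water channels Aqp2 (1.04, SE 0.27) and Aqp3 (0.74, SE 0.20) and the sodium channel subunit Scnn1g rose and Aqp4 fell (-0.95, SE 0.24), with 293 to 1014 CPM summed in db/m and 658 to 1671 in db/db. In the first proximal segments, S1 and S2, the glucose transporter Slc5a2 (0.46, SE 0.13) and the amino acid transporter Slc6a19 (0.93, SE 0.16) rose. Of the 7 markers 0 were called lower, at 5104 to 7113 CPM summed in db/m and 4975 to 7133 in db/db. Only 4 of the 7 had a positive log2 fold change, and 4 had an unadjusted p under 0.05. Lrp2 was at -0.50 (SE 0.17, adjusted p = 0.0811 by edgeR), with 8 of 9 db/db libraries below every db/m library. Of 3 tested immune markers the leukocyte antigen Ptprc fell (-1.49, SE 0.19), at 6.33 to 14.2 CPM in db/m and 2.48 to 4.57 in db/db. Summed over all 6 listed immune markers, the level was 44.3 to 65.1 CPM in db/m and 25.8 to 60.3 in db/db. The part of these cells in the level of Guca2b was not tested.

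For the other lists edgeR called 0 markers. These were 10 mural and mesangial markers (148 to 426 CPM summed in db/m, 222 to 379 in db/db), of which 2 had an unadjusted p under 0.05 and DESeq2 called 2. They were also 6 fibroblast markers (90.9 to 308 and 96.9 to 247) and 6 of thin limb and inner medulla (94.4 to 1101 and 85.9 to 473), each with 1 unadjusted p under 0.05 and 0 called by DESeq2. The 3 urothelial (1.39 to 100.0 and 16.0 to 75.5) and 3 adipose markers (0.231 to 306 and 1.69 to 312) had 0 by either measure. These counts are of tested markers, while each sum covers every listed marker. Listed were 8 for fibroblasts, 7 for thin limb and inner medulla, 5 for urothelium and 6 for adipose tissue.

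**Figure D3:**
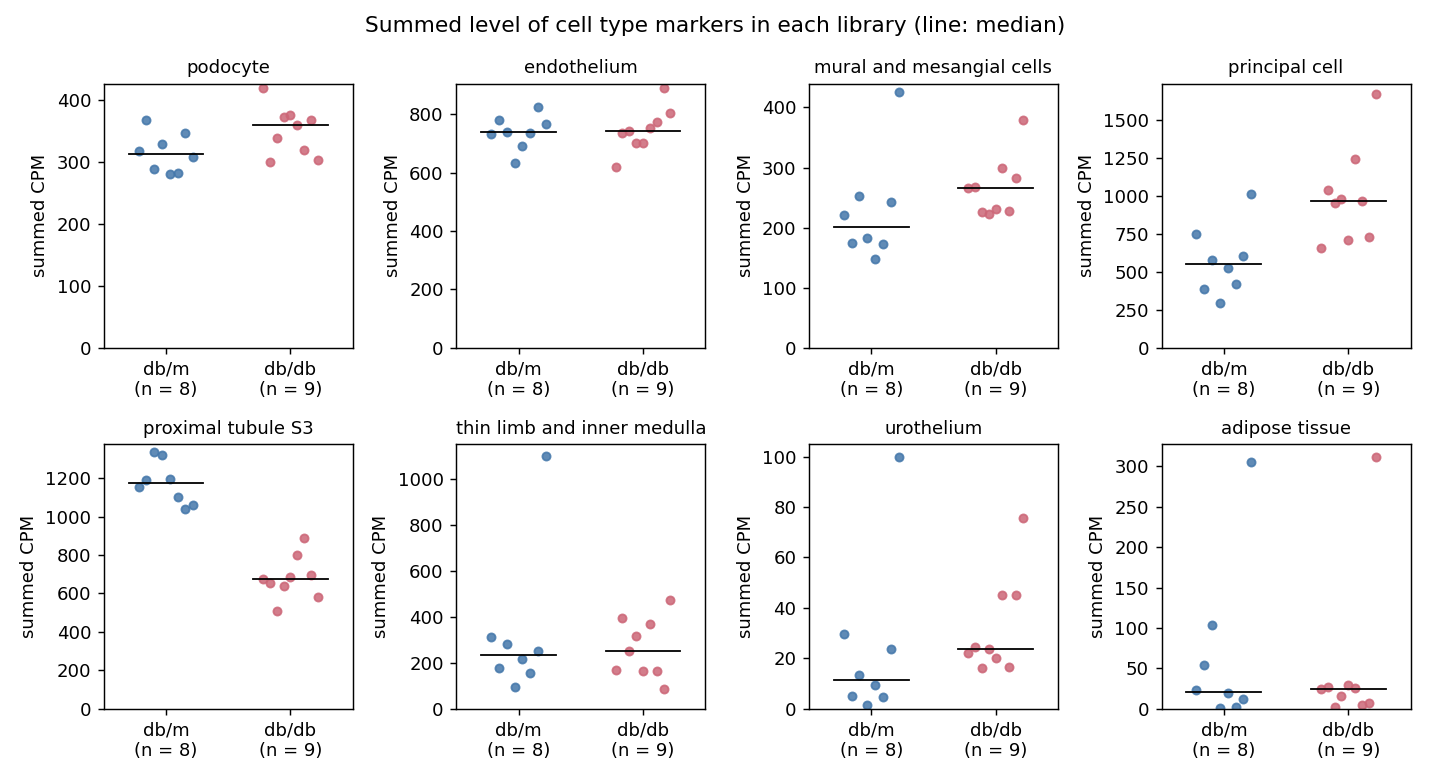
Summed CPM of cell type markers (vertical axes, from 0) in each db/m (blue) and db/db (red) library, with the group median as a line. Podocyte and endothelial sums overlap between groups, S3 sums do not (1042 to 1334 against 507 to 887 CPM), and db/m replicate 8 and db/db replicate 9 stand above the rest for adipose tissue and urothelium.

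Corin was near the counting limit, with 1 to 23 counts per library. It lay at 0.231, 0.832 and 4.04 CPM in db/m and 0.218, 1.06 and 2.79 in db/db, and the groups overlapped throughout. The fit of all genes with any count gave -0.16 (SE 0.53, 95% interval -1.24 to 0.93), and the sign turned without db/m replicate 1 (0.22) or 6 (0.08). No difference was detectable at this depth. Pde5a, with 18 to 64 counts per library, lay at 5.49, 7.75 and 9.59 CPM in db/m and 4.43, 6.19 and 9.10 in db/db. Its means were 7.74 ± 1.64 and 6.24 ± 1.52 CPM, a log2 fold change of -0.31 (SE 0.18, 95% interval -0.68 to 0.06) that did not pass the threshold.

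The other genes of the pathway were listed by their known roles, with earlier results of these libraries already known, so the counts below are a description of these lists. Of 50 listed genes 32 were tested, of which 5 rose and 1 fell, beside the 3.91% and 3.49% over all genes. Their median log2 fold change was 0.15, against 0.00 for all tested genes. Adjusted p-values below are from the same edgeR fit as above, adjusted over all genes.

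The peptides that bind the receptors were hardly seen in the kidney. Nppa (atrial peptide), Nppb (B-type peptide) and Ostn, a ligand of Npr3, had 0 counts in all 17 libraries, which allows up to 0.0793 CPM over the db/m libraries together and 0.0741 over the db/db libraries. Nppc (C-type peptide) had 0 counts in the controls and 8 in db/db, in replicates 6, 7 and 9, too few to test. Of these 8 counts, 6 were in replicate 9, the library with the most gene counts. Of the 4 tested enzymes that process or degrade peptides, Mme (neprilysin, which degrades natriuretic peptides) fell from 166 ± 25.9 to 114 ± 22.4 CPM (-0.54, SE 0.13; adjusted p = 0.00878 by edgeR). Its values ran from 134 to 202 CPM in db/m and from 81.8 to 147 in db/db, and so overlapped. Furin, a convertase of peptide precursors, was at 0.39 (SE 0.15; adjusted p = 0.141 by edgeR).

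Gucy2c, the gut receptor of the guanylins, had 0 counts in every library. The subunits of the cyclase that answers to nitric oxide did not pass the test: Gucy1a1 was at -0.21 (SE 0.15) and Gucy1b1 at -0.02 (SE 0.21). Of the 8 listed cyclases only these had enough counts; 0 had an unadjusted p under 0.05 and DESeq2 called 0. Of 7 tested genes named as phosphodiesterases beside Pde5a, Pde6d among them, 1 was called. Pde10a, which breaks down cAMP and cGMP, rose from a mean of 1.53 to 3.84 CPM (1.33, SE 0.32, adjusted p = 0.0105 by edgeR). It rests on few reads, 57 counts in db/m against 160 in db/db, and the groups overlapped slightly (0.232 to 2.68 and 2.61 to 5.58 CPM). Pde3b was at 0.42 (SE 0.19; adjusted p = 0.214 by edgeR).

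Of the tested effectors and exporters of cGMP, 1 of 7 was called. Abcc4, a transporter that exports cyclic nucleotides among other organic anions, rose from a mean of 33.5 to 78.6 ± 17.1 CPM (1.23, SE 0.18; adjusted p = 0.00012 by edgeR). It ran from 18.0 to 58.6 CPM in db/m and from 54.2 to 109 in db/db. The cGMP-dependent kinases had too few reads for a test: 68 counts in db/m against 57 in db/db for Prkg1 and 54 against 67 for Prkg2. Vasp, a substrate of these kinases, was at 0.22 (SE 0.11; adjusted p = 0.268 by edgeR). Of 3 tested genes of nitric oxide synthesis 0 passed, with Ddah1 at -0.07 (SE 0.11) and Nos3, the endothelial synthase, at 0.22 (SE 0.34); at an unadjusted p under 0.05 this was also 0, and DESeq2 called 0.

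The sodium transporters and channels on whose activity these hormones bear had 9 tested members, of which 3 rose and 0 fell, with a median of 0.31. All 3 are subunits of the epithelial sodium channel of the distal nephron. Scnn1a went from 35.8 ± 6.12 to 57.4 ± 12.1 CPM (0.68, SE 0.14; adjusted p = 0.00303 by edgeR), Scnn1b to 29.3 ± 6.34 from a db/m range of 15.6 to 24.5 (0.55, SE 0.15; adjusted p = 0.0217 by edgeR) and Scnn1g from 3.46 ± 0.950 to 6.34 ± 2.63 (0.89, SE 0.26; adjusted p = 0.0358 by edgeR). The call of Scnn1b ended without db/m replicate 2 or 4, and that of Scnn1g held in only 6 of 17 fits that left out 1 library (highest adjusted p 0.0530 and 0.0794 by edgeR). Both also ended without db/m replicate 8 and db/db replicate 9 together (0.0916 and 0.117). That of Scnn1b ended too without db/db replicates 4, 7 and 8 (0.103), and that of Scnn1g with no filter on low counts. Of the 6 other principal cell markers, given above with Scnn1g, Aqp2 and Aqp3 rose, Aqp4 fell and 3 did not pass the test. The part of these cells was not tested.

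**Figure D4:**
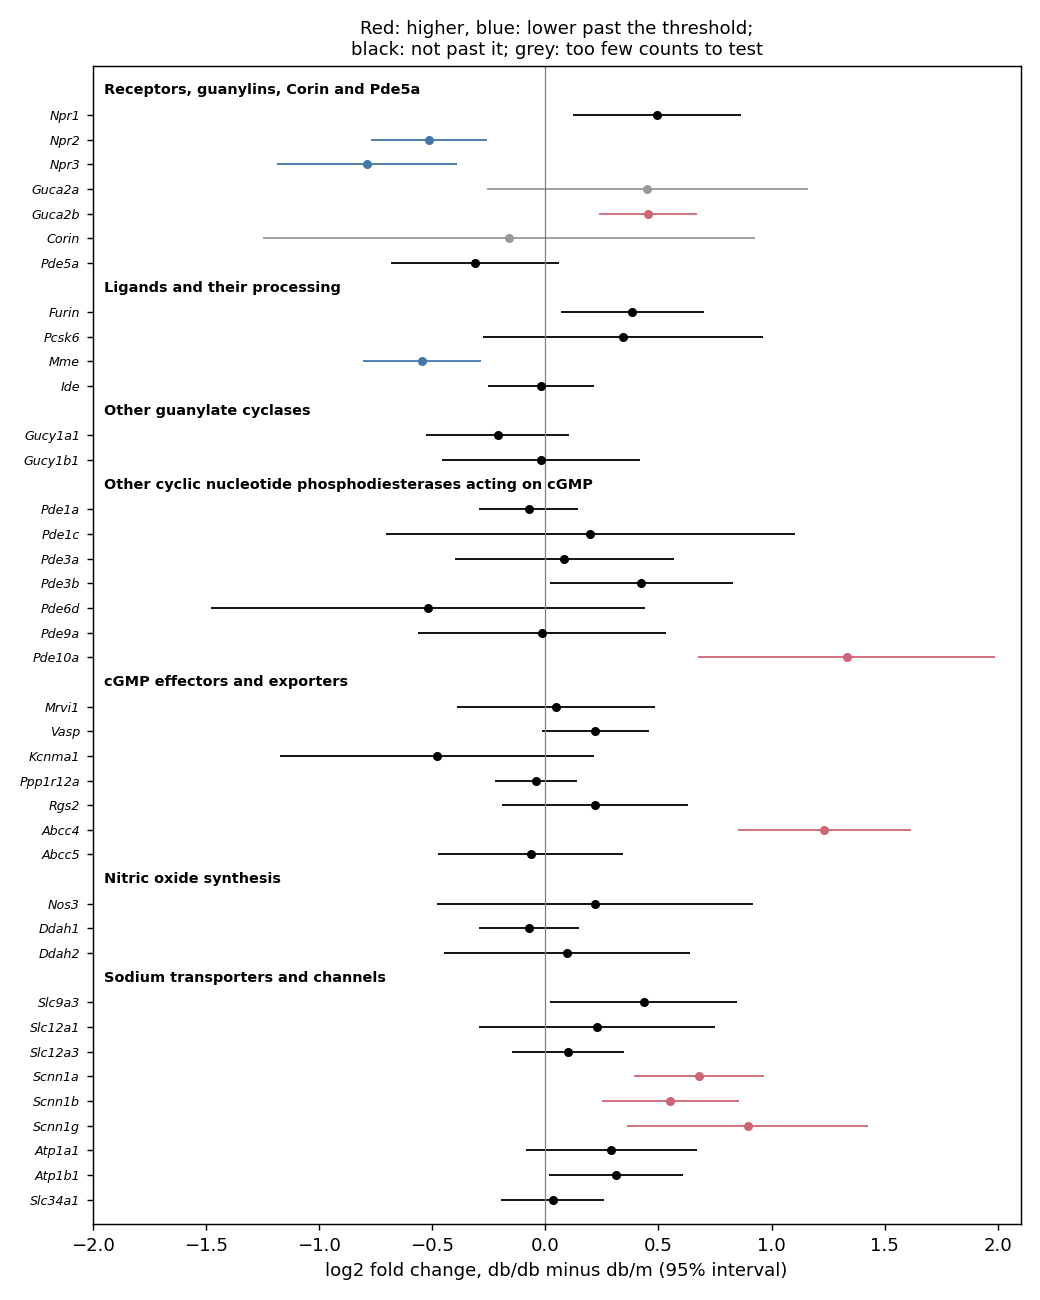
Log2 fold change (horizontal, db/db minus db/m, with 95% interval) of the 7 genes and of the 32 tested genes of the pathway lists, by list. Red and blue points passed the threshold upward and downward, black points did not, and grey points (Guca2a and Corin) had too few counts to test.

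For each tested gene, the genes whose log2 CPM was most like it over the 17 libraries, once each group's mean was removed, were sought among the 6572 genes whose average log2 CPM reached 4. With so many genes and few libraries high values arise readily, so these are descriptions with no p. Guca2b was closest to Elob (r = 0.906), Taldo1 (0.869) and Ndufv3 (0.866), and Npr1 to Kcnk1 (0.885), Mprip (0.822) and Cdo1 (0.821). Npr2 was closest to Lrrc40 (0.868), Atn1 (0.857) and Srm (0.851), and Npr3 to Srr (0.838), Pomt1 (0.824) and Aamdc (0.820). Pde5a had the weakest likeness, to Tob2 (0.648), Zc3h6 (0.632) and Lims2 (0.619). By Spearman's rho, of these 15 genes only Elob, Kcnk1 and Zc3h6 took the first place for their gene.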

How the data were processed

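Transcripts were counted in kidneys of 17 mice with a QuantSeq 3′ kit, per the labels' protocols. That text speaks of cells in plates, while the tissue field gives kidney. The authors deposited raw counts per gene. STAR 2.7.3a, HTSeq 2.16.2 and the human build GRCh38 are listed in the submitters' processing notes, while gene rows carry mouse Ensembl IDs. For the mouse build, the strand setting and duplicate reads the entry is: not given in the sources used here. Reads outside genes (19.3%) and ambiguous reads (0.533%) were left out.

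Of 55487 identifiers, 55141 had a symbol; Irag1 was matched through its synonym Mrvi1. Counts were fitted with edgeR 4.0.16 (quasi-likelihood, TMM, filterByExpr minimum count 10, no covariate) in R 4.3.3 over all 17 libraries, with Benjamini-Hochberg adjustment at 0.05. The SE is the log2 fold change divided by the square root of F. Intervals are at the 95% level. Likeness and correlations used log2 CPM with a prior count of 2. The fit was tested on simulated data. Any pair of libraries in a group differed by more than sampling noise (chi-square over its degrees of freedom at least 3.83). Members and lists were chosen with earlier results of these data known. The pathway genes named are those called, the 2 with the smallest p in each list, and Nppa, Nppb, Nppc, Gucy2c, Prkg1 and Prkg2; marker genes are named where 4 or fewer of a list were called, except 1 that is not reported here. Alternatives were relative log expression scaling, DESeq2 1.42.0, no count filter, no mitochondrial genes, a replicate block, exact permutation of mean log2 CPM, and libraries left out.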

Additional observations from a re-analysis of the deposited data

Results flagged for a closer look

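Of 26 groups of values looked at (the 7 genes and the 6 called genes of the pathway lists, in each genotype), 2 held a library far from the rest, where chance gives about 1 in 20. Npr2 in db/m replicate 8 was at 35.4 CPM, with the nearest other db/m library at 48.9. Scnn1g in db/m replicate 5 was at 5.56 CPM, with the nearest at 3.81.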

How the results depend on the processing

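Npr3 and Guca2b kept their direction and their side of the threshold under every alternative run, at -0.90 to -0.78 and 0.43 to 0.45 outside the fits that left out 1 library. Replicate numbers are shared between the groups, but same-numbered libraries did not vary together (r = -0.455 to 0.212, over 0.1 in 2 of 8 pairs, and 0 of 8 libraries correlated best with their own number). With the replicate number as a block over 16 libraries, 194 genes were higher and 231 lower in place of 474 and 423; of the 7 genes 1 was lower in place of 2, as Npr2, at -0.55, no longer passed, and of the pathway genes 3 were higher in place of 5 and 0 lower in place of 1, as Mme (adjusted p = 0.0507 by edgeR), Scnn1b (0.149) and Scnn1g (0.151) lost their calls. That fit estimates more terms from fewer samples. Without db/m replicate 8 and db/db replicate 9, 314 genes were higher in place of 474; the cause was not tested. Without any 1 library, 319 to 666 genes were higher and 318 to 571 lower, 1 to 2 of the 7 genes were higher and 2 lower, and 3 to 6 pathway genes were higher and 1 lower. Corin ran from -0.34 to 0.22 without any 1 library, turning to 0.22 and 0.08 without db/m replicate 1 or 6. Guca2a, Corin, the atrial and B-type peptides and the cGMP-dependent kinases are limited by depth. Both settings that left out several libraries at once were chosen after seeing the data.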
